A study of Mus musculus with 8 samples.

Results

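Astrocytes take up glutamate and potassium, couple to each other through gap junctions, and supply lipids and lactate to neurons. In the ventricular-subventricular zone (V-SVZ), the germinal layer beside the lateral ventricle, neural stem cells (NSCs) are themselves astroglial and express many of the same genes. Transcripts encoded by mitochondrial DNA stay in mitochondria and spliced mRNAs accumulate in the cytoplasm, whereas unspliced pre-mRNA and RNAs such as *Malat1* stay in the nucleus. A droplet from a nuclei preparation that is rich in mitochondrial transcripts therefore holds material from outside the nucleus.

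The droplets described here were mitochondria-rich barcodes that carried UMIs (unique molecular identifiers, one per captured transcript) of 6 astrocyte genes. A barcode was selected when it had at least 300 detected genes, at least 30% of its UMIs from the 13 genes of mitochondrial DNA, and at least 4 UMIs summed over *Plpp3*, *Gja1*, *Mfge8*, *S1pr1*, *Slc4a4* and *Aqp4*. This rule gave 2772 barcodes of 33406 mitochondria-rich barcodes and of 37881 barcodes with at least 300 genes. They are called astrocyte-transcript barcodes below, or members. The members were thus chosen by measured values, namely the levels of the 6 genes and the mitochondrial share, and these are given as a description and were not tested against the remaining 30634 mitochondria-rich barcodes. The rule read the other genes only through the number of detected genes and the total UMIs.

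Single nuclei RNA sequencing (snRNA-seq) libraries came from the micro-dissected V-SVZ of 8 mice at postnatal day 90, with 1 library per mouse. The 4 control mice were *Tsc2* wt/wt (labelled *Tsc2* wild), and the 4 mutant mice were *Tsc2* mut/mut (labelled *Tsc2* mutant/mutant), carrying the conditional *Tsc2* allele Tsc2tm1.1Mjg. *Tsc2* encodes an inhibitor of the kinase complex mTORC1, which promotes translation and growth. In the study's mice, Cre recombinase removes *Tsc2* and switches on a CAG-tdTomato reporter at the *Rosa26* locus, which the controls carry too, and 100000 tdTomato-positive nuclei were sorted per mouse. Cre came from a CAG-CRE plasmid electroporated into neonatal ventricles or from a tamoxifen-inducible Nestin-CRE-ERT2 transgene, and which of these was used for the sequenced mice is not given in the sources used here. The libraries held between 11182335 and 36773832 UMIs over 60000 barcodes each. Among the kept barcodes, 166 of 37714 barcode sequences occurred in more than 1 library, and 25 of the 2772 members had a sequence that was also kept in another library.

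The targeted gene was sparse. Among the members of control mice, *Tsc2* (chromosome 17 from 24595816 to 24632630, GRCm38) had 6, 11, 11 and 13 UMIs in replicates 1 to 4. Among those of mutant mice it had 4, 7, 10 and 2 UMIs. Scaled to counted UMIs, these were 33.6 ± 2.73 CPM in the controls and 23.6 ± 5.23 CPM in the mutants (SD, n = 4), and the mice did not overlap. Counted UMIs are those of nuclear-encoded genes other than the 6, and CPM means UMIs per 1000000 of them. In the other mitochondria-rich barcodes *Tsc2* was at 21.0 ± 3.39 and 20.1 ± 1.73 CPM, with overlap. These are tags from 3′ ends, and transcripts that lack the deleted exons can still be counted, so the values do not check the labels.

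Members made up a smaller mean share of the mitochondria-rich barcodes in mutant mice, but the genotypes overlapped. In control mice, members were 12.5% (200 of 1602), 7.84% (524 of 6681), 15.1% (291 of 1922) and 12.1% (328 of 2709) of the mitochondria-rich barcodes in replicates 1 to 4. In mutant mice they were 6.02% (280 of 4655), 8.83% (264 of 2990), 7.56% (676 of 8940) and 5.35% (209 of 3907). The overlap came from control replicate 2, which lay below mutant replicate 2. The mean was 11.9% ± 3.02 in the controls and 6.94% ± 1.56 in the mutants (SD, n = 4), a difference that did not pass an exact two-sided permutation test over mice (p = 0.0571, adjusted p = 0.222 over 44 measures of the members, where the 70 assignments allow no p below 0.0286).

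Depth moved with this share. The median member had 1446, 998, 1661 and 1634 UMIs in control replicates 1 to 4, and 906, 1518.5, 915.5 and 903 in mutant replicates 1 to 4. A barcode with more UMIs reaches 4 UMIs of the 6 genes more easily. When each mitochondria-rich barcode was thinned to 600 UMIs, which left out between 4 and 87 barcodes per library, the share with at least 4 was 4.15%, 3.26%, 4.28% and 3.75% in the controls and 2.61%, 2.42%, 3.28% and 2.45% in the mutants. The ranges overlapped only by the pair of control replicate 2 and mutant replicate 3, and the difference again did not pass (exact permutation test, p = 0.0571). Summed over all mitochondria-rich barcodes, the 6 genes had 2185 ± 99.1 CPM in the controls and 2072 ± 302 CPM in the mutants (SD, n = 4, exact permutation test, p = 0.514). Fewer such droplets and fewer astrocyte UMIs per droplet cannot be told apart in a share set by a threshold.

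**Figure D1:**
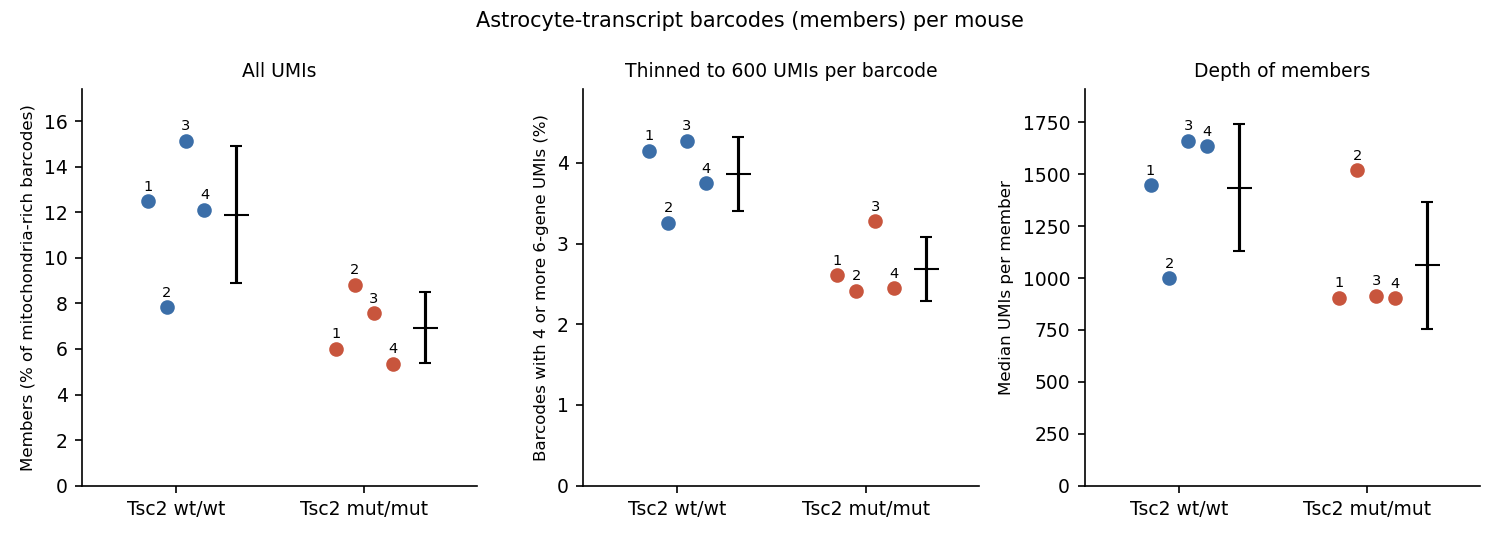
Members as a percent of mitochondria-rich barcodes (left), the percent of mitochondria-rich barcodes with 4 or more UMIs of the 6 genes after thinning to 600 UMIs (middle), and median UMIs per member (right), each against genotype. Points are mice with their replicate number and bars are mean and SD of 4 mice; in the left panel *Tsc2* wt/wt replicate 2 (7.84%) lies among the *Tsc2* mut/mut mice, and in the right panel *Tsc2* mut/mut replicate 2 (1518.5 UMIs) lies among the *Tsc2* wt/wt mice.

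The 6 selecting genes appeared in similar proportions in all mice. *Plpp3*, which encodes a phosphatase of lipid messengers, gave 30.6% ± 1.6 of the 6-gene UMIs of members, and *Slc4a4*, a sodium bicarbonate cotransporter, gave 23.5% ± 1.2 (SD, n = 8 mice). *Mfge8*, a secreted bridge for phagocytosis, gave 13.3% ± 1.1. *Gja1* (connexin 43), *S1pr1* (a receptor for sphingosine 1-phosphate) and *Aqp4* (the water channel of astrocyte endfeet) gave 10.9% ± 1.0, 10.8% ± 0.9 and 10.8% ± 1.1. Of the members, 2264 (81.7%) had UMIs of 3 or more of the 6 genes, 465 had 2 and 43 had only 1. In low-mitochondrial barcodes with a sum of at least 4, *Slc4a4* gave 48.5% ± 6.0 of the 6-gene UMIs and *Aqp4* gave 5.8% ± 0.9.

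Members were deeper in 7 of 8 mice, and less mitochondrial, than the other mitochondria-rich barcodes of the same mouse. The mitochondrial share of all member UMIs was 44.6% ± 2.69 against 50.1% ± 3.31, and it was lower in 8 of 8 mice. The median number of genes ranged over the mice from 383 to 588 in members and from 341 to 408 in the others. Barcodes with at least 600 UMIs were also thinned to 600, mitochondrial UMIs included. The median then ranged from 256 to 285 genes in members and from 228 to 264 in the others. It was higher in members in 8 of 8 mice. A lower mitochondrial share leaves more UMIs of nuclear-encoded genes at that depth, so this is not independent of that share.

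Compared with the other mitochondria-rich barcodes of the same mouse, the members held more transcripts of most listed astrocyte genes, and fewer ribosomal protein, neuronal, myelin and microglial transcripts. UMIs were summed per mouse and class, and edgeR's quasi-likelihood test was run with the mouse as a block on 6385 genes, with Benjamini-Hochberg adjustment over all of them. At an adjusted p under 0.05, 1066 genes (16.7%) were higher in members and 1025 (16.1%) were lower. With library totals in place of TMM scaling, which moved the median log2 fold change of all genes from −0.01 to 0.08, 1321 were higher and 683 lower. The lists below were chosen with earlier results of these libraries known, so their counts are a description beside those shares.

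Transporters and membrane proteins of astrocytes moved as a block: 25 of 25 listed genes were higher, with a median log2 fold change of 1.37. *Slc1a3* (GLAST, a glutamate transporter also used to mark V-SVZ stem cells) ranged from 1825 to 2615 CPM in members with a median of 2303, and from 685 to 1018 CPM with a median of 831 in the others. The 2 classes did not overlap over the 8 mice (log2 fold change 1.37, standard error 0.04, adjusted p = 8.7e-73). *Atp1b2*, which encodes a membrane glycoprotein of astrocytes, had 1024 ± 128 CPM against 338 ± 60.0 (SD, n = 8). *Tril*, an accessory protein of Toll-like receptors, and *Gpr37l1*, an orphan receptor, stood at the top of the list with log2 fold changes of 2.08 and 1.80. *Slc1a2* (GLT-1), the main glutamate transporter of forebrain astrocytes, rose less, from 8528 ± 810 to 12941 ± 1425 CPM (log2 fold change 0.51, standard error 0.03). *Kcnj10*, the potassium channel Kir4.1, had the smallest change, 0.46. In every listed gene the direction was the same under each of the 18 alternative settings of this comparison, and all 25 passed in each.

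Secreted proteins followed, with 15 of 17 genes higher and 1 lower (median 0.88). *Apoe*, the lipid carrier, went from 7536 ± 721 CPM in the others to 14029 ± 930 CPM in members (log2 fold change 0.81, standard error 0.03, adjusted p = 4.5e-62). *Clu*, the chaperone clusterin, had 3060 ± 362 CPM against 1444 ± 128. *Htra1*, a serine protease, had 315 ± 86.6 against 87.2 ± 18.5, and *Bcan*, a proteoglycan of the extracellular matrix, had 553 ± 62.7 against 181 ± 23.01. *Cpe*, a peptidase that neurons also use to process hormones, was the listed gene that fell (log2 fold change −0.13, standard error 0.03), and it was lower in 6 of 8 mice, with overlapping CPM. With library totals alone, 15 secreted genes were higher and 0 lower, so this call depends on the scaling.

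Among regulators of NSCs and astroglia, 15 of 19 tested genes were higher and none lower (median 0.72). *Sox9*, a transcription factor of the astroglial lineage, ranged from 196 to 329 CPM in members with a median of 291, and from 98.6 to 126 CPM with a median of 108 in the others. *Egfr*, the receptor of epidermal growth factor, and *Notch1*, a Notch receptor, had log2 fold changes of 1.35 and 1.37. *Egfr* was at 39.7 ± 15.8 CPM against 14.1 ± 3.55. The Notch targets *Hes5* and *Hes1* rose by 0.92 each on the log2 scale, and *Id2*, *Id3* and *Id4*, inhibitors of differentiation factors, by 0.83, 0.69 and 0.72. *Gfap*, the intermediate filament of astrocytes and stem cells, did not pass (98.5 ± 26.5 against 101 ± 35.9 CPM, log2 fold change −0.10, standard error 0.11), nor did *Fabp7*, *Nfix* or *Vim*. The list of reactive astrocyte genes had only *Vim* and *Gfap* left after the filter on low counts. Enzymes and metal or lipid binding proteins were higher in 20 of 23 cases, with a smaller median of 0.47. *Pla2g7*, which degrades platelet-activating factor, rose most (704 ± 135 against 249 ± 57.7 CPM), *Aldoc* and *Glul* rose by 0.43 and 0.39 on the log2 scale, and *Mt3*, *Dbi* and *Fabp7* did not pass. Of 17 glycolysis and lactate genes 10 were higher and 1 lower, led by *Slc2a1*, the glucose transporter GLUT1, at 29.2 ± 7.44 against 10.48 ± 2.72 CPM. The gene that fell was *Eno2*, the neuronal enolase.

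The 15 genes with the largest increases that held in 8 of 8 mice with at least 20 CPM in members were *Oaf*, *Tril*, *Fzd2*, *Entpd2*, *Gas1*, *Tlr3*, *Wnt7a*, *Gpr37l1*, *Myorg*, *Tmbim1*, *Omg*, *Htra1*, *Adgrg1*, *Srebf1* and *Slc1a4*, with log2 fold changes from 1.71 to 2.21. They were taken from 671 genes that met the same conditions. The set holds a Wnt ligand and a Wnt receptor (*Wnt7a*, *Fzd2*), a sensor of double-stranded RNA (*Tlr3*) and an enzyme that degrades extracellular ATP (*Entpd2*). It also holds the lipid synthesis factor *Srebf1* and the neutral amino acid transporter *Slc1a4*. *Omg*, the oligodendrocyte myelin glycoprotein, is not on the oligodendrocyte list used below. It had 89.5 ± 29.7 CPM in members against 23.3 ± 6.31. *Oaf* ranged from 27.1 to 65.7 CPM in members with a median of 42.7, and from 3.16 to 10.46 CPM with a median of 8.25 in the others. *Fzd2* ranged from 37.2 to 81.3 CPM with a median of 50.5, and from 9.01 to 19.3 CPM with a median of 9.53. *Gas1*, a surface protein that binds Hedgehog, ranged from 16.4 to 54.8 CPM and from 4.43 to 16.3 CPM. All 3 were separated between the classes across the 8 mice, *Gas1* by the narrowest gap.

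Neuronal, oligodendrocyte and microglial transcripts were lower in members but present, while a few markers of other cell types were higher. All 13 dendrite-localized neuronal mRNAs were lower (median −0.36). *Nrgn*, a calmodulin-binding protein of dendrites, had 2010 ± 346 CPM in members and 2571 ± 338 in the others, and *Camk2n1*, an inhibitor of the kinase CaMKII, had 6806 ± 1201 against 8088 ± 1288. The ranges of these genes overlapped between classes over mice, while within each mouse the member value was the lower. Of 14 general and striatal neuronal genes 10 were lower too (median −0.29). Of 13 oligodendrocyte genes 9 were lower and 1 higher (median −0.42). With others matched on UMIs, 3 of 8 tested were lower and 1 higher (median −0.19), where 619 of all 3399 genes tested were lower. *Mbp*, the myelin basic protein, had 3023 ± 406 CPM against 3792 ± 442, and *Car2*, a carbonic anhydrase that astrocytes share, was the gene that rose. Of 8 microglial genes 6 were lower (median −0.50), among them the complement gene *C1qa* (29.96 ± 13.6 against 45.5 ± 8.68 CPM). With at least 40% mitochondrial UMIs, 1 of 6 microglial genes tested was lower, where 605 of all 5651 genes tested were lower. Of the oligodendrocyte list 12 to 14 of 14 genes were detected in members depending on the mouse, of the microglial list 9 to 12 of 12, and of the dendritic list 12 or 13 of 13. The summed endothelial list was higher in members in 8 of 8 mice (279 ± 47.6 against 200 ± 28.1 CPM), and *Bsg*, a broadly expressed membrane glycoprotein and its only tested gene, rose by 0.65 on the log2 scale and made up 259.5 of those 279 CPM. The oligodendrocyte progenitor list was higher in 6 of 8 mice (238 ± 45.0 against 189 ± 17.5 CPM), and of its 2 tested genes *Olig1*, a transcription factor of the oligodendrocyte lineage, rose by 0.35. Of 2 ependymal genes tested *Rarres2*, a secreted chemoattractant, rose by 0.82, and the summed list was higher in 5 of 8 mice. The summed mural list was higher in 6 of 8 mice, with no gene tested, and the choroid plexus list in 1 of 8, with neither tested gene passing.

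The 8 genes with the largest decreases that held in 8 of 8 mice, with at least 20 CPM in the other mitochondria-rich barcodes, were *Ccdc106*, *Cldn11*, *Pde1b*, *Phlda3*, *Fcer1g*, *Rab13*, *B4galnt1* and *Gng2*, with log2 fold changes from −1.35 to −0.96. *Cldn11*, the tight junction protein of myelin, was at 9.23 ± 6.24 CPM in members and 21.8 ± 6.30 in the others, and *Fcer1g*, an immunoreceptor chain of microglia, at 14.7 ± 9.37 and 29.0 ± 5.08. Ribosomal protein genes fell together: 79 of 81 were lower (median −0.40), and their summed level was 190933 ± 10792 CPM in members against 236952 ± 11776 in the others, lower in 8 of 8 mice. *Rps6*, the ribosomal protein phosphorylated downstream of mTORC1, was the only mTORC1 pathway gene of 13 that fell, by 0.37 on the log2 scale. *Tbc1d7* and *Atf4* rose, although neither passed without control replicate 4, and the remaining 10, *Tsc2* among them, did not pass.

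Long astroglial genes were higher in 13 of 18 cases (median 0.42). *Luzp2* ranged from 650 to 1085 CPM in members and from 357 to 573 CPM in the others. RNAs retained in the nucleus did not follow this pattern. *Malat1* ranged from 316 to 1287 CPM in members with a median of 563, and from 338 to 1339 CPM with a median of 644 in the others, overlapping fully (log2 fold change −0.10, standard error 0.13, adjusted p = 0.65). Of the 6 nuclear-retained RNAs tested, only *Meg3* passed, and it was lower.

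**Figure D2:**
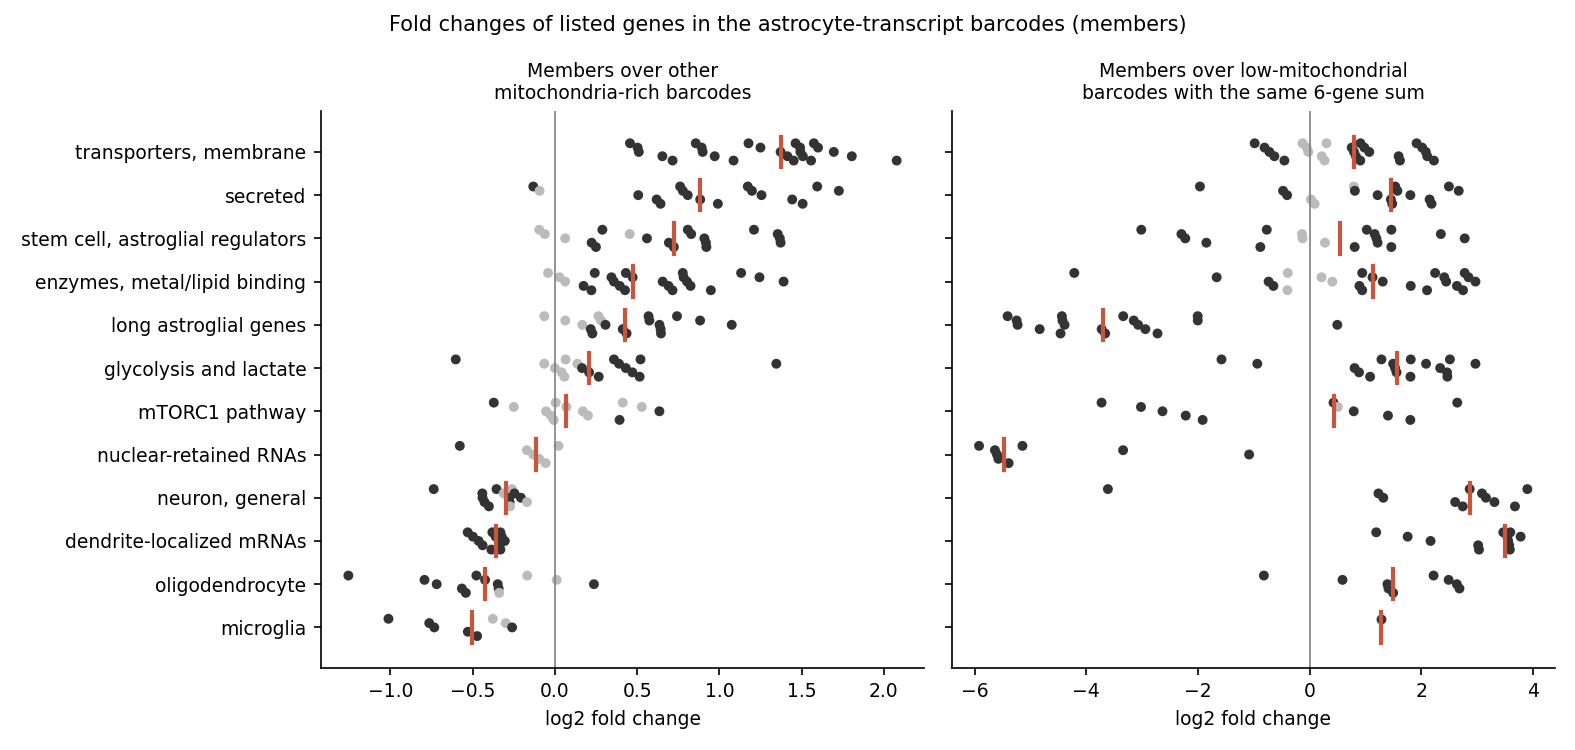
Log2 fold changes in members over the other mitochondria-rich barcodes (left) and over low-mitochondrial barcodes with a 6-gene sum of at least 4 (right). Each point is a listed gene, and red lines are list medians. Dark points had an adjusted p under 0.05 and grey points did not; the transporter list has its median at 1.37 on the left and 0.80 on the right, while the long astroglial list has 0.42 on the left and −3.69 on the right.

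The profile changed gradually with the number of UMIs of the 6 genes rather than at the threshold. Mitochondria-rich barcodes with 0 such UMIs (14123 barcodes) had 13443 ± 1289 CPM of the transporter list. Those with 3, just outside the rule (2179 barcodes), had 21524 ± 1944 CPM, and those with 4, just inside (1169 barcodes), had 23964 ± 1747. With 6 to 9 UMIs the level was 32345 ± 3640. *Apoe* went from 6488 ± 814 CPM at 0 UMIs to 10578 ± 793 at 3 and 15408 ± 1670 at 6 to 9. Between 0 and 3 UMIs, all of them barcodes that the rule left out, *Slc1a2*, *Slc1a3*, *Apoe*, *Clu* and *Aldoc* were each higher at 3 in 8 of 8 mice. Over the same steps, ribosomal protein genes went from 245106 ± 12334 CPM at 0 to 213131 ± 10637 at 3 and 181874 ± 11267 at 6 to 9. *Malat1* stayed between 682 and 793 CPM on average in the 7 bins up to 6 to 9 UMIs. The mitochondrial share was 50.8% ± 3.38 at 0 and 43.7% ± 3.19 at 6 to 9. The bin of 10 or more UMIs held as few as 6 barcodes in a mouse and is plotted only.

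**Figure D3:**
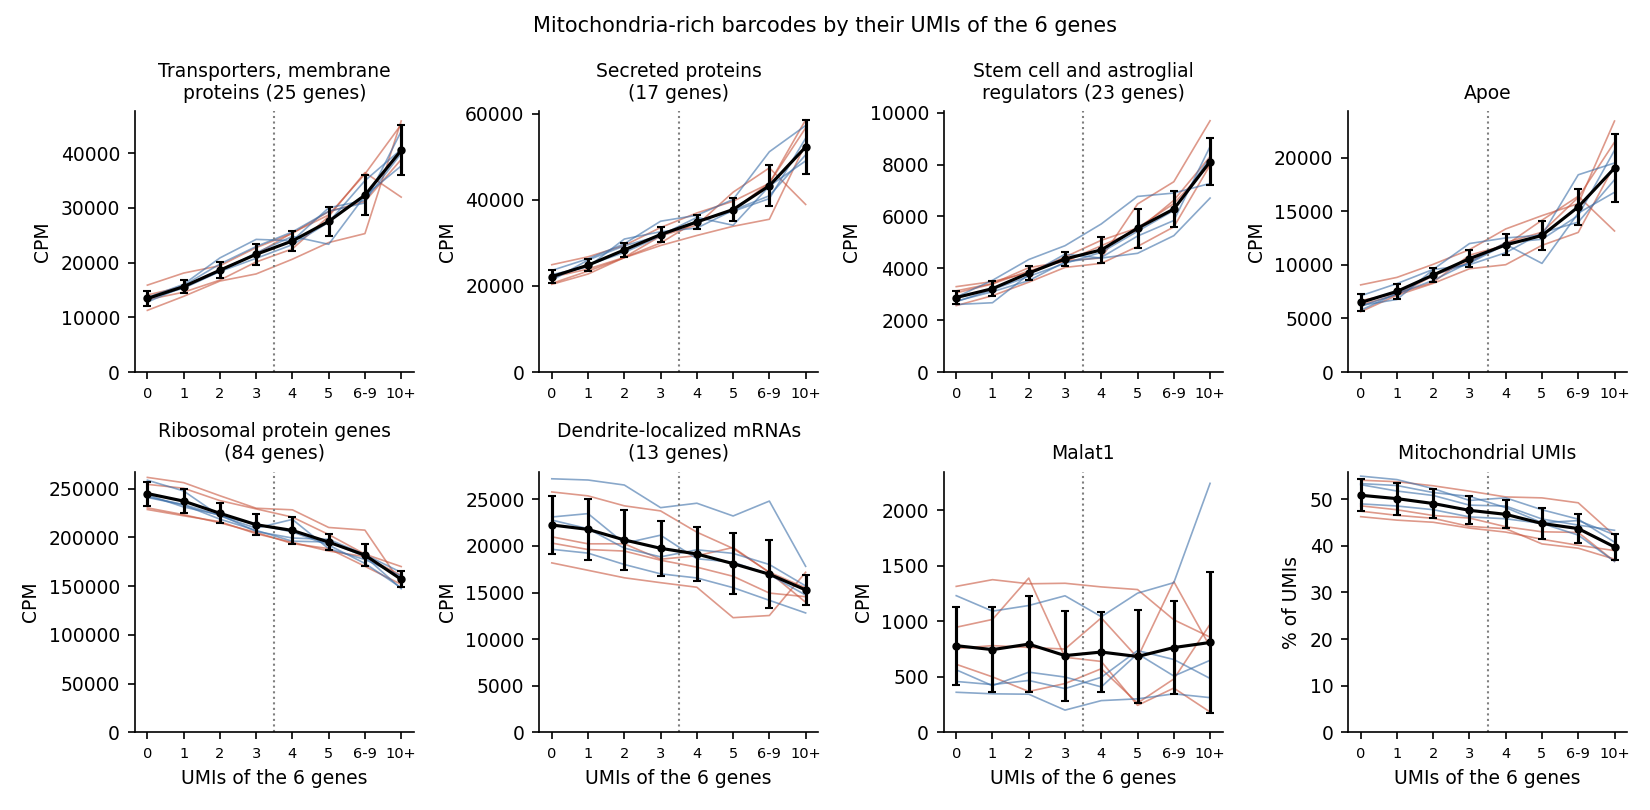
CPM of 3 astroglial lists, *Apoe*, ribosomal protein genes, dendrite-localized mRNAs and *Malat1*, and the mitochondrial percent of UMIs, against the number of UMIs of the 6 genes per mitochondria-rich barcode. Thin lines are mice (blue *Tsc2* wt/wt, red *Tsc2* mut/mut), black points are mean and SD of 8 mice, and the dotted line marks the threshold of the rule; the transporter list rises from 13443 to 32345 CPM between 0 and 6 to 9 UMIs while *Malat1* stays level.

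The second comparison set the members beside 1572 barcodes of the same mice with under 30% mitochondrial UMIs and the same sum of at least 4. They were deeper than members except in mutant replicate 4, so the same cut was looser relative to their UMIs. The 6 genes averaged 4038 ± 579 CPM in them and 7672 ± 1366 CPM in members (SD). The part of this in the differences below was not tested. These low-mitochondrial barcodes numbered 130, 296, 143 and 154 in the controls and 304, 119, 403 and 23 in mutant replicates 1 to 4. The 23 barcodes of mutant replicate 4 had a median of 861 UMIs and a median mitochondrial share of 24.6%, near the limit of 30%, against medians of 2205 to 3846 UMIs and 4.88% to 8.34% in the other 7 mice. Some of them held transcripts of another tissue. Those of the choroid plexus list, mainly *Ttr*, the transthyretin of choroid plexus epithelium, made up 75120.2 CPM in control replicate 1, 39967 in control replicate 4, 8529 in mutant replicate 3 and 187854 in mutant replicate 4, and at most 1188 in the other 4 mice. Among members the same list was between 12.9 and 1396 CPM. The endothelial and ependymal lists averaged 1606 and 795 CPM in the low-mitochondrial barcodes, against 279 and 85.4 CPM in members. Of 5234 genes tested, 2132 (40.7%) were higher in members and 2312 (44.2%) lower, so most tested genes differed.

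Nuclear RNAs were at a low level in members. *Malat1* ranged from 11448 to 41561 CPM in the low-mitochondrial barcodes with a median of 36144, against at most 1287 CPM in members (log2 fold change −5.58, standard error 0.29, adjusted p = 3.6e-12). All 8 nuclear-retained RNAs tested were lower in members, with a median of −5.48. Among long astroglial genes 17 of 18 were lower (median −3.69). *Lsamp* and *Gpc5*, genes of astroglial membrane proteins that span very long introns, had 425 ± 108 CPM and 242 ± 64.0 CPM in members against 15865 and 9107 CPM on average in low-mitochondrial barcodes. *Gpm6a*, a membrane glycoprotein, was the exception and was higher in members (log2 fold change 0.50, standard error 0.20, adjusted p = 0.024).

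The 8 genes furthest below the low-mitochondrial level by the naming rule were *Gm12239*, *Grk4*, *9530026P05Rik*, *Lncpint*, *Pde7b*, *Sycp2*, *Spag16* and *Gm26917*. Of these, *Spag16* is on the ependymal list. Summed over the 8 mice, members had 14 UMIs of *Lncpint*, a long noncoding RNA, where the low-mitochondrial barcodes had 3008. Per counted UMI this was 80.9 times more in the low-mitochondrial barcodes, with a 95% exact binomial interval of 48.1 to 148. The intervals given here cover only the counting error of UMIs pooled over mice. These genes were chosen for their large decreases, with a minimum CPM asked only of the low-mitochondrial class. The intervals do not cover that choice. *Grk4* had 1 UMI against 422, a ratio of 159 with an interval from 28.4 to 6289, and *Sycp2* had 2 against 468, a ratio of 88.1 with an interval from 24.2 to 729. The genes furthest above were *Sncb*, *Eef1a2*, *Nefl*, *Golga7b*, *Camk2n2*, *Nrgn*, *Nrsn1* and *Rnf227*, with log2 fold changes from 3.73 to 3.95. *Sncb*, *Nefl*, *Camk2n2* and *Nrgn* are neuronal genes, and *Eef1a2* is the translation elongation factor of neurons and muscle. *Sncb*, the synuclein beta, had 166 ± 39.5 CPM in members and 8.68 ± 5.03 in low-mitochondrial barcodes. All 12 dendrite-localized mRNAs tested were higher in members (median 3.51), as were all 80 ribosomal protein genes (median 2.78). Without mutant replicate 4, the medians were 3.85 for dendrite-localized mRNAs, 3.28 for ribosomal protein genes, −5.16 for nuclear-retained RNAs and −3.60 for long astroglial genes, and 17 of 25 transporters were higher and 4 lower.

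Each astrocyte list held genes that were higher and genes that were lower in this comparison. Of secreted proteins 11 were higher and 3 lower of 17 (median 1.46), and of the enzymes 15 were higher and 4 lower of 23 (median 1.13). *Apoe* ranged from 12168 to 14997 CPM in members and from 1637 to 6686 CPM in the low-mitochondrial barcodes, with no overlap. *Aldoc* had a log2 fold change of 2.97 and *Cst3*, the protease inhibitor cystatin C, 2.67. Of transporters 14 were higher, 5 lower and 6 not called of 25 (median 0.80). *Atp1b2* (2.23) and *Gpr37l1* (2.08) were higher, *Slc39a12*, a zinc transporter, and *Slc7a10*, a serine transporter, were lower at −0.98 and −0.63, and *Slc1a3* did not pass (2297 ± 233 CPM against 2471 on average, log2 fold change −0.12, standard error 0.20). Medians of these lists depended on the deepest barcodes. Leaving out the 5% deepest left 79, 99, 89 and 89 low-mitochondrial barcodes in the controls and 141, 80, 140 and 17 in the mutants. Members fell only from between 200 and 676 per mouse to between 198 and 673. In that setting 9 transporters were higher and 10 lower (median 0.12, against 0.21 for all genes tested). The median of all genes was −0.09 in the main fit. The medians of secreted proteins and enzymes were 0.65 and 0.66. With a 6-gene sum of at least 6, 14 transporters were higher and 8 lower (median 0.50, against −0.67 for all genes). Without the barcodes that held at least 2% choroid plexus UMIs, 16 were higher and 5 lower (median 0.89, against −0.15). This last alternative was chosen after seeing the data.

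The 20000 barcodes with the fewest UMIs of each library, with medians from 40 to 414 UMIs by mouse, served as a reference of low content. Whether they held only free RNA of the suspension was not tested. In them the transporter list was at 13512 ± 1366 CPM, against 29290 ± 2142 in members and 15578 ± 1288 in the other mitochondria-rich barcodes. Secreted proteins were at 23516 ± 2358, 40196 ± 2333 and 24736 ± 1523 CPM in that order. The dendritic list was at 16800 ± 2982 CPM in the lowest barcodes and 17740.1 ± 2712 in members, and ribosomal protein genes at 223915 ± 23863 and 190933 ± 10792. Members were above the lowest barcodes in both astrocyte lists in 8 of 8 mice, and the ranges overlapped in the dendritic list. Oligodendrocyte transcripts were higher in the lowest barcodes (13505 ± 3519 CPM) than in members (5241 ± 544).

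**Figure D4:**
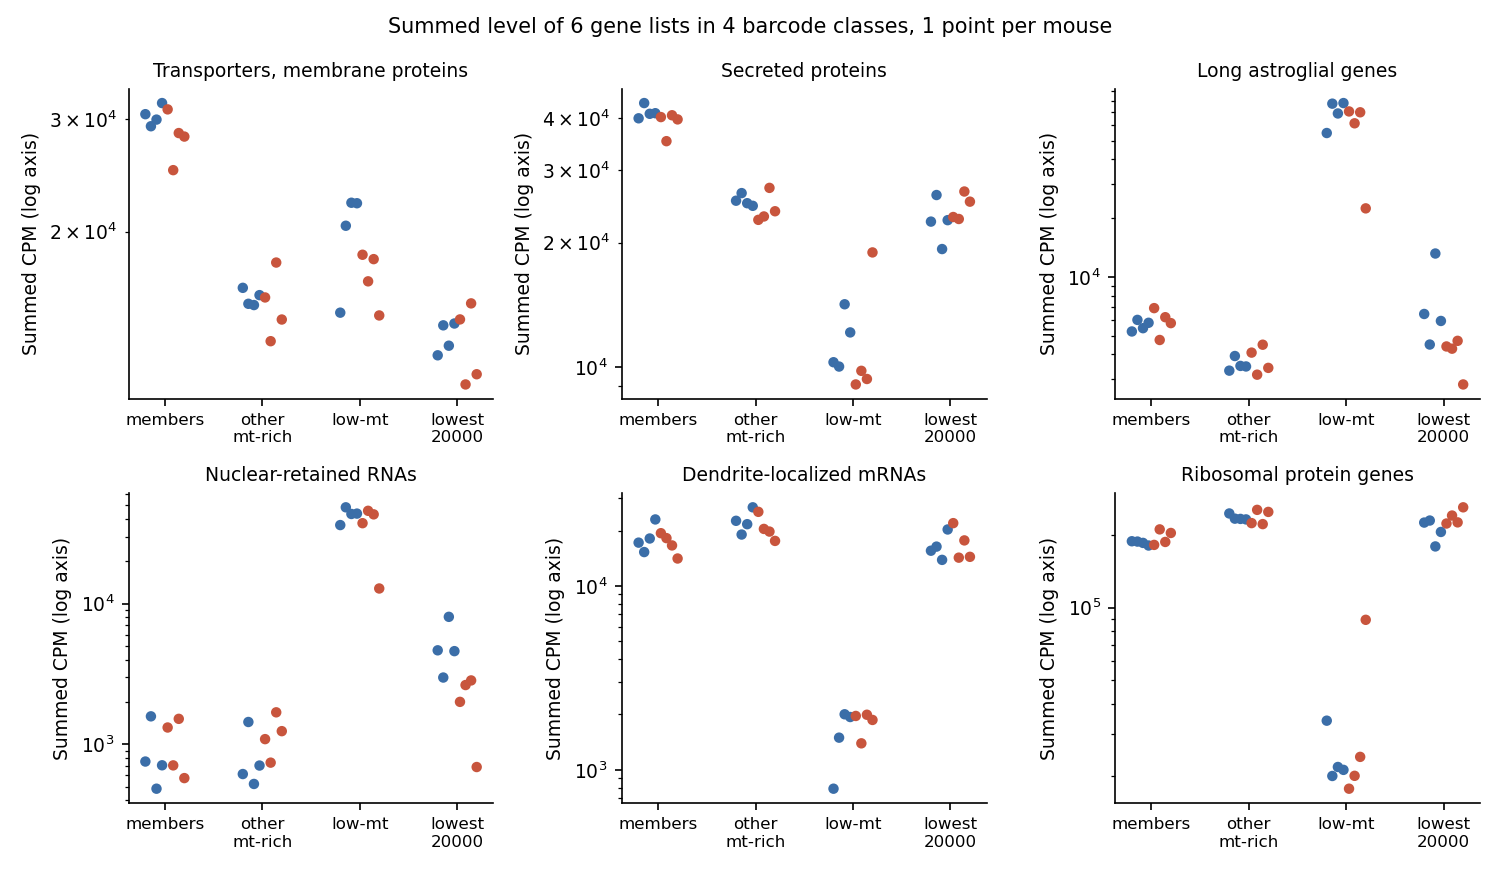
Summed CPM (log axis) of 6 gene lists, 1 point per mouse (blue *Tsc2* wt/wt, red *Tsc2* mut/mut). Classes are members, other mitochondria-rich barcodes, low-mitochondrial barcodes with a 6-gene sum of at least 4, and the 20000 barcodes of fewest UMIs per library. Nuclear-retained RNAs average 955 CPM in members and 38894 in low-mitochondrial barcodes, where *Tsc2* mut/mut replicate 4, with 23 barcodes, lies apart.

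Genotype was compared within members over the 8 mice. Of 3916 genes tested with edgeR, 18 passed (0.460%), 9 higher and 9 lower in the mutants, and 353 had an unadjusted p under 0.05. *Gt(ROSA)26Sor*, the noncoding transcript of the locus that holds the reporter (chromosome 6 from 113067428 to 113077333), had 239, 259, 229 and 339 CPM in the controls and 97.5, 108, 104 and 98.5 CPM in the mutants. All 4 mutant mice lay far below the lowest control mouse (log2 fold change −1.37, standard error 0.19, adjusted p = 1.1e-07). *Tshz2*, a zinc finger transcription factor, had 109, 56.9, 51.5 and 72.8 CPM in the controls and 219, 186, 165 and 197 CPM in the mutants (log2 fold change 1.45, standard error 0.21). These 2 genes, *Tubb2b* and *Dbp* passed without each mouse in turn.

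In the other mitochondria-rich barcodes of the same mice, 18 of 9785 genes passed (0.184%), and both leading genes differed there too. *Gt(ROSA)26Sor* was at 172 ± 27.7 against 96.8 ± 6.48 CPM (log2 fold change −0.85, standard error 0.11), and *Tshz2* at 105 ± 20.6 against 193 ± 36.1 CPM (0.86, standard error 0.15). The genotype difference in the contrast of members over others, which tests whether members respond differently, passed for 0 of 7465 genes (0%) by edgeR and by DESeq2, with 394 at an unadjusted p under 0.05. This test has less power than the comparison within members, so a count of 0 does not show that the classes respond alike. For *Gt(ROSA)26Sor* this difference was −0.59 (standard error 0.18, adjusted p = 0.88) and for *Tshz2* 0.62 (standard error 0.21, adjusted p = 0.93). The 5 genes with the smallest unadjusted p in that contrast were *Vbp1*, *Lamtor5*, *Ccdc82*, *Supt3* and *S100b*, each with an adjusted p of 0.857.

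Among the calls were the tubulin genes *Tubb2b* and *Tuba1a*, and tubulins were not tested as a list. *Tubb2b*, a beta tubulin of growing neurites, had 702, 646, 741 and 698 CPM in control members and 457, 451, 493 and 361 CPM in mutant members, without overlap (log2 fold change −0.61, standard error 0.12, adjusted p = 0.0016). *Tuba1a*, its alpha partner, had 942 ± 87.6 and 670 ± 120 CPM (−0.47, standard error 0.11), and it passed in 3 of the 8 fits that left out a mouse. *Dbp*, a transcription factor driven by the circadian clock, rose from 121 ± 15.6 to 222 ± 35.7 CPM (0.88, standard error 0.18, adjusted p = 0.0055), and the mice did not overlap. Dissection times are not given in the sources used here.

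Of 22 astrocyte enzymes and binding proteins tested, *Aldoc*, *Aldh2* and *Pla2g7* were lower and *Dbi* was higher in the mutants, where 0.460% of all tested genes passed. When a mouse was left out, *Aldoc* and *Aldh2* passed in 2 of 8 fits, *Dbi* in 3 and *Pla2g7* in 0. *Aldoc*, the astrocyte aldolase, had 4543 CPM in replicate 1, 3824 in replicate 2, 4287 in replicate 3 and 4766 in replicate 4 of the controls. In the mutants it had 3419, 3497, 3320 and 3457 CPM, all below the lowest control (log2 fold change −0.33, standard error 0.09, adjusted p = 0.049). A lower *Aldoc* level in mitochondria-rich clusters of these libraries was known beforehand, so this is not independent evidence. *Htra1*, one of the genes most raised in members, had 385 ± 41.3 CPM in the controls and 245 ± 51.4 in the mutants (−0.68, standard error 0.15, adjusted p = 0.014), and passed in 4 of the 8 fits that left out a mouse. In the other mitochondria-rich barcodes it overlapped (−0.32, standard error 0.13, adjusted p = 0.32), and the difference between the 2 classes did not pass in edgeR's test (−0.43, adjusted p = 0.94). *Dbi*, an acyl-CoA binding protein, had 2087 ± 198 and 2716 ± 397 CPM, and mutant replicate 2 (2222.5) lay within the control range.

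None of the 25 transporters passed between genotypes, with log2 fold changes from −0.31 to 0.27 and a median of −0.10. None of the 16 long astroglial genes, 15 NSC regulators or 6 mTORC1 pathway genes tested passed either. Of 81 ribosomal protein genes only *Rpl39* did, at 3069 ± 157 and 3932 ± 207 CPM. Of 16 glycolysis and lactate genes, *Aldoc* was the only call, and 14 had a negative fold change (median −0.26, against 0.00 for all genes tested). In the other mitochondria-rich barcodes 17 of 18 had a negative fold change too (median −0.19), with no call. In members their summed level was 11494, 10291, 10957 and 11687 CPM in the controls and 9007, 9383, 8916 and 9040 CPM in the mutants. The genotypes did not overlap, but the test did not pass after adjustment (exact permutation test, p = 0.0286, adjusted p = 0.21).

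The remaining named calls were mostly weaker. *Glo1*, which detoxifies methylglyoxal and lies on chromosome 17 at 5952 kb from *Tsc2*, rose from 163 ± 50.8 to 283 ± 86.7 CPM with overlap (0.90, standard error 0.19). *Eif2s2*, a subunit of the initiation factor eIF2, rose from 210 ± 68.8 to 346 ± 49.4 CPM, also with overlap. *Zfas1*, a host RNA of small nucleolar RNAs, rose from 191 ± 32.2 to 288 ± 17.5 CPM. *Ramac*, an activator of mRNA cap methylation, fell from 73.3 ± 25.6 to 30.8 ± 7.08 CPM, and in the other mitochondria-rich barcodes it had a log2 fold change of −1.44 (standard error 0.15). *Cdk9*, a kinase of transcription elongation, was at 52.2 ± 8.51 and 19.2 ± 11.01 CPM, and *Rsbn1l* at 20.5 ± 14.1 and 60.6 ± 25.9 CPM. When a mouse was left out, *Glo1* passed in 5 of 8 fits, *Ramac* and *Rpl39* in 4, *Eif2s2* in 3, *Zfas1* in 1 and *Cdk9* in 0, and *Rsbn1l* in 3 of the 7 fits in which it was tested.

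Some markers of other cells and some mitochondrial transcripts had levels that did not overlap between genotypes in members, but none passed after adjustment. Summed endothelial markers were at 315 ± 40.6 and 243 ± 12.9 CPM and ependymal markers at 66.5 ± 10.4 and 104 ± 22.96 CPM in the controls and the mutants, each without overlap (exact permutation test, p = 0.0286, adjusted p = 0.21). In the endothelial list 2 to 8 of 10 genes were detected, with *Bsg* at 259.5 of 279 CPM on average, and in the ependymal list 4 to 8 of 12, with *Rarres2* the most abundant. Choroid plexus markers, mainly *Ttr*, were at 92.9 ± 54.0 and 594 ± 566 CPM with overlap (exact permutation test, p = 0.114, adjusted p = 0.26), with 2 to 6 of 10 detected. *mt-Nd2*, a subunit of complex I, made up 5.70% ± 0.18 of the mitochondrial UMIs of control members and 4.98% ± 0.09 of those of mutant members, without overlap (p = 0.0286 in the exact permutation test, adjusted p = 0.21). *mt-Nd4* (7.09% ± 0.15 and 6.62% ± 0.22) and *mt-Nd5* (1.03% ± 0.04 and 0.98% ± 0.02) did not overlap either, with the same p. For *mt-Nd5* the gap was very small, with the lowest control at 1.00129% and the highest mutant at 1.00105%. Control replicate 1 lay apart from the other controls at 1.10%. The split of *mt-Nd2* was also seen in the other mitochondria-rich barcodes (5.73% to 6.04% in controls, 4.95% to 5.25% in mutants) and in the lowest 20000 barcodes (6.18% to 6.51% and 5.22% to 5.68%). *mt-Nd4* was separated in both classes as well. In contrast, *mt-Nd5* overlapped in the others (1.00% to 1.06% and 1.01% to 1.04%) and in the lowest barcodes (1.06% to 1.21% and 1.06% to 1.14%). The part of these markers and mitochondrial transcripts in the genotype differences was not tested.

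**Figure D5:**
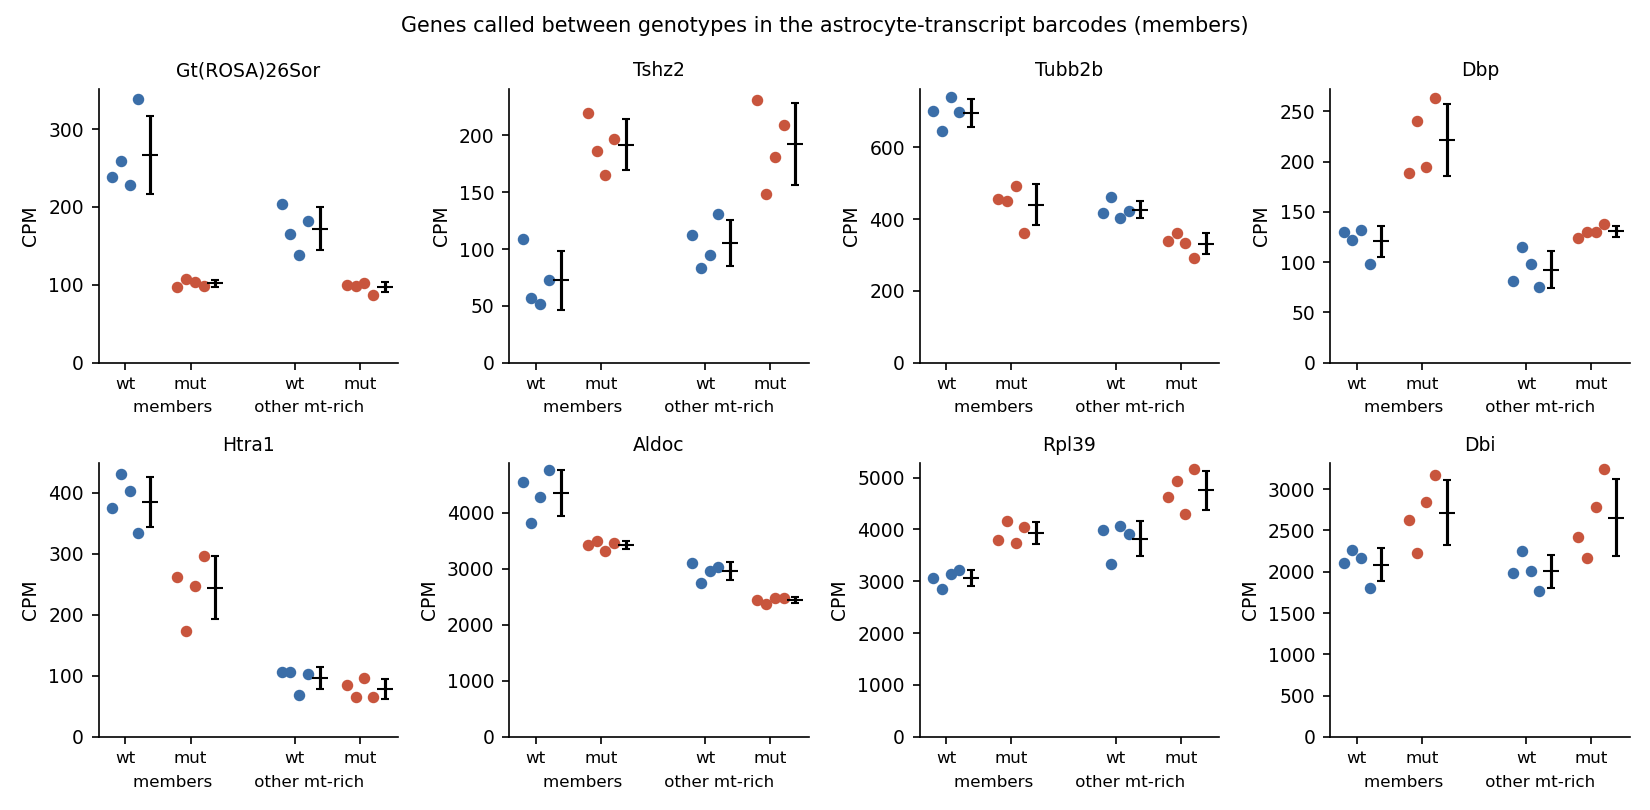
CPM of 8 genes called between genotypes in members, for each mouse (blue *Tsc2* wt/wt, red *Tsc2* mut/mut) in members and in the other mitochondria-rich barcodes, with mean and SD of 4 mice. *Gt(ROSA)26Sor*, *Tshz2*, *Tubb2b*, *Dbp*, *Htra1*, *Aldoc* and *Rpl39* do not overlap between genotypes in members, whereas *Dbi* does.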

How the data were processed

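Per the labels and the study's methods, V-SVZ tissue was trypsinised, lysed with Dounce homogenisation, frozen and sorted for tdTomato, with doublets gated out at the sorter, and 10x Genomics 3′ v3.1 libraries were aligned to GRCm38 (mm10) by the authors with Cell Ranger 7.0.1 set to 60000 barcodes per library (their later steps in Seurat 4 were not used here). The deposited values were raw UMI counts of 32285 genes. The 13 mitochondrial genes and the 6 selecting genes were left out of totals and tests. No doublet caller was run.

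UMIs were summed per mouse and class and tested with edgeR 4.0.16 (TMM, quasi-likelihood, genes kept by its filter on low counts, threshold 0.05 after Benjamini-Hochberg adjustment), with mouse as a block within mice and genotype alone between mice. Standard errors are the log2 fold change over the root of F. Measures per mouse had exact two-sided permutation tests over 70 assignments. DESeq2 1.42.0, other scalings and filters, other thresholds, depth matching and leaving out each mouse were the alternatives. The tests were checked on simulated counts, where the test of the genotype difference between classes recovered fewer changed genes than the genotype test within members. Nothing in the sources says that mice of a group were otherwise independent of litter or sort day. In fits of genotype alone, p-values are therefore relative to the spread between these mice. With mouse as a block, they are relative to the spread of the class difference over these mice. Named genes were the 15 highest and 8 lowest fold changes (8 and 8 against low-mitochondrial barcodes) among calls with the same direction in 8 of 8 mice and at least 20 CPM in the class where they are higher, and between genotypes the 15 smallest adjusted p-values (the 5 smallest p where none passed), plus the listed genes. The members, the rule and the lists were chosen with earlier results of these data known. *Gm12239* and other gene symbols are those of the files, and positions came from GENCODE M21 for 32235 of 32285 genes. Library totals ranged from 11182335 to 36773832 UMIs. Values of 1 listed gene are not reported here.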

Additional observations from a re-analysis of the deposited data

Results flagged for a closer look

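Within each genotype of 4 mice, 136 groups of values were screened for a sample far from the others, and 12 stood out, where chance gives about 1 in 20. *Tsc2* mut/mut replicate 2 accounted for 8 of them. Its members were deeper than those of its genotype (median 1518.5 UMIs against 903 to 915.5, and 515.5 genes against 383 to 395.5), its other mitochondria-rich barcodes were deeper as well (median 1221.5 UMIs), and mitochondrial UMIs made up 49.4% of its members' UMIs against 41.6% to 42.8%. The same mouse had the lowest summed level of secreted astrocyte proteins, 35205 CPM against 39747 to 40677 CPM. Within its mitochondrial UMIs, *mt-Co3* was at 18.6%, *mt-Nd4l* at 0.465% and *mt-Nd6* at 0.0699%, each below the other 3 mice of its genotype. *Tsc2* mut/mut replicate 3 had the most members (676 against 209 to 280). *Tsc2* wt/wt replicate 2 had 1561 CPM of the 6 genes in the barcodes that were not members against 1154 to 1184 in the other 3, and *Aqp4* at 1002 CPM in members against 721 to 768. *Tsc2* wt/wt replicate 1 had *mt-Nd5* at 1.10% of mitochondrial UMIs against 1.00% to 1.01%.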

How the results depend on the processing

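Of 355 alternative values for the 23 genes named between members and other mitochondria-rich barcodes, 353 kept direction and call, and 2 (*Phlda3* and *Rab13*, with a 6-gene sum of at least 6) lost the call. All 258 for the 16 genes named against low-mitochondrial barcodes kept both. For the 18 genotype calls, 155 of 293 kept the call, 138 lost it and none changed sign. The 2091 genes called between members and others became 952 with at least 500 genes per barcode, 1203 with at least 40% mitochondrial UMIs, 1226 with others matched on UMIs and 1181 with matching and library totals alone (chosen after seeing the data), each on fewer genes or barcodes, and 1858 to 2058 without 1 mouse. The 4444 against low-mitochondrial barcodes became 9516 with no filter, 2845 with a 6-gene sum of at least 6, 2374 without the 5% deepest barcodes, and 4272 to 5223 without 1 mouse. They became 4769 without choroid plexus barcodes and 5342 without *Tsc2* mut/mut replicate 4 as well, both chosen after seeing the data. The 18 genotype calls became 7 with DESeq2, 6 with at least 500 genes, 2 with a 6-gene sum of at least 6 and 5 to 23 without 1 mouse (5 without *Tsc2* wt/wt replicate 3 or *Tsc2* mut/mut replicate 3, 6 without *Tsc2* mut/mut replicate 4, 11 without *Tsc2* wt/wt replicate 1). The genotype difference in the contrast gave 1 call with at least 40% mitochondrial UMIs, and 0 to 1 without 1 mouse. The 18 genotype calls in the other mitochondria-rich barcodes became 14 to 119 without 1 mouse (119 without *Tsc2* mut/mut replicate 2 and 41 without *Tsc2* wt/wt replicate 2). The cause of these shifts was not tested. The difference in the share of members stayed between −6.31 and −3.87 percentage points without 1 mouse, and its unadjusted p was under 0.05 only without *Tsc2* wt/wt replicate 2 (exact permutation test, p = 0.0286, the smallest that 35 assignments allow, not adjusted over the measures).

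Mice shared replicate numbers between genotypes, but same-numbered mice did not deviate together (correlations of deviations over 3916 genes from −0.0769 to −0.0184). With the replicate block, 6 genes passed between genotypes, and the share of members had p = 0.25 (exact permutation test within pairs).

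Depth limits these results: the median member held 903 to 1661 UMIs depending on the mouse, the members of a mouse 121795 to 405468 counted UMIs, and genes under about 20 CPM rest on a few UMIs each.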
